A study of Oryza sativa Indica Group with 2 samples.

Results

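Starch in rice leaves is laid down in chloroplasts by day and drawn on at night. ADP-glucose pyrophosphorylase joins glucose 1-phosphate and ATP to make ADP-glucose, the glucosyl donor, and is built from small and large subunits. Granule-bound and soluble starch synthases then lengthen glucan chains, branching enzymes add the branch points of amylopectin, and plastid phosphorylase adds or removes glucose at chain ends. The genes described here are 10 rice loci for such enzymes: AGPS1 and AGPS2 for small subunits, AGPL1 and AGPL3 for large subunits, the granule-bound synthase GBSSII, the soluble synthases SSI and SSIIIb, the branching enzymes BEI and BEIIa, and the plastid phosphorylase PHO1. They were chosen by locus identifier, and every coding-sequence model of a locus was taken. Of these 10 members, 4 had rows in the authors' deposited table, with 8 models among its 5804 models of 3946 loci. That table held 8.61% of the 67393 models the authors tested. The matching share of loci is not known, so counts of listed loci, here and below, have no like share beside them.

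Leaf messenger RNA was compared between a cold-tolerant and a cold-sensitive indica genotype, breeding lines whose IRGA names begin alike. Seedlings of both were about 20 days old, carried 3 leaves, and had spent 6 h in a chamber at 10 °C, lit at 40 µmol m-2 s-1. RNA was pooled from 9 plants for each line and gave 1 library per line. No value thus has a replicate, and no difference between the lines could be tested. No unchilled group is part of the comparison, so a response to cold cannot be read from it. The table does not say which line is the numerator of its fold change. Library A is the numerator and library B the denominator below, and neither was assigned to a line.

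The reads behind each ratio were recovered from the table as whole numbers, and levels are given in RPM, the reads of a gene scaled by library sizes of 12846997 for A and 12152372 for B. Each interval is exact at 95% (by Poisson for levels, by Clopper-Pearson for ratios). It covers counting error only, not the spread between plants. The authors' p-values come from the same libraries without replicates, so they hold no measure of that spread either. The table holds only models that passed the authors' adjusted p of 0.05, which was 8.61% of the 67393 models they tested, so each listed gene had to differ between the libraries to be listed. Among the 3946 loci, library B had the higher level at 58.6% and library A at 41.4%, with a median log2 ratio of A over B of -0.31, and 27.2% differed by at least 1 on the log2 scale. The leaf genes RBCS (Rubisco small subunit), CAB2R (a light-harvesting protein) and RCA (Rubisco activase) were all in the table. All 3 were higher in B, RBCS with 2886 RPM in A against 6588 in B (log2 ratio -1.19), CAB2R with 936 against 2209 (-1.24) and RCA with 27181 against 28822 (-0.08). RBCS and CAB2R thus differed in the direction of AGPS2, SSI and the listed breakdown genes described below, and by more than they did. RCA had that direction too but differed by less than any of them. The part of such leaf genes in those ratios was not tested. Of 5 starch genes known mainly from the endosperm, AGPL2, SSIIa, SSIIIa and BEIIb had no row, and GBSSI had at most 31 reads in a library. The lack of a row does not show that a gene had few reads.

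Of the 4 members with rows, AGPS2 and SSI had higher levels in library B, and AGPL1 and GBSSII in library A. The listed small-subunit and large-subunit genes of ADP-glucose pyrophosphorylase, AGPS2 and AGPL1, thus stood on opposite sides, as did the listed granule-bound and soluble synthase genes, GBSSII and SSI. Under the authors' scaling the differences were 1.43-fold for AGPS2, 2.22-fold for AGPL1, 1.14-fold for GBSSII and 1.24-fold for SSI. Of the 4, AGPL1 was the only one past a log2 difference of 1, which it missed at 0.99 once 1 RPM was added to both levels. AGPS1, AGPL3, SSIIIb, BEI, BEIIa and PHO1 had no row under any model. A missing row gives no value: it does not tell a gene of like level in both libraries from one with too few reads to pass.

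Among the subunit genes of ADP-glucose pyrophosphorylase, the small-subunit gene AGPS2 (LOC_Os08g25734) had 2320 reads in A and 3128 in B for its model with most reads. This was 180.6 RPM (173 to 188) in A and 257 RPM (248 to 267) in B. Library B was the higher, and the intervals of the levels did not overlap. Each listed gene had passed the authors' threshold on these same reads, so a lack of overlap adds no support, here or for the other members. The log2 ratio of A over B was -0.51 (-0.59 to -0.43), and the adjusted p from edgeR in the authors' deposited table was 2.12e-36. The gene had 2 models in the table. The second, with 2263 reads in A against 3072 in B, stood at a log2 ratio of -0.52 (-0.60 to -0.44), so the models differed by a net 57 reads in A and 56 in B. Rice AGPS2 is known to give transcripts for a plastid and a cytosolic subunit through different first exons. Which deposited model stands for which is not given by the sources used, nor how many reads were counted for both, so they are not separate measurements.

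The large-subunit gene AGPL1 (LOC_Os05g50380) had 122 reads in A and 52 in B, or 9.50 RPM (7.89 to 11.3) in A and 4.28 RPM (3.20 to 5.61) in B. Here library A was the higher, again with no overlap between the intervals. Its log2 ratio was 1.15 (0.67 to 1.65), which corresponds to a level between 1.59 and 3.13 times as high in A. The adjusted p from edgeR in the authors' deposited table was 2.31e-05. Both of its models carried identical reads and are 1 measurement. AGPL1 rested on the fewest reads of the 4 members, and 76.6% of the loci in the table had more.

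Among the starch synthases, the gene of the granule-bound enzyme GBSSII (LOC_Os07g22930), which makes amylose in leaves and other non-storage tissues, had 13387 reads in A and 11156 in B. Its level was 1042 RPM (1024 to 1060) in A and 918 RPM (901 to 935) in B. A was slightly the higher, and the intervals did not overlap. The log2 ratio was 0.18 (0.15 to 0.22), with an adjusted p from edgeR of 4.08e-21 in the authors' deposited table. Of its 3 models in the table, models 2 and 3 had identical reads. Model 4 had 12534 and 10369 reads and a ratio of 0.19 (0.16 to 0.23). GBSSII ranked 57 of 3946 loci by reads, and 3.55% of loci had a smaller absolute log2 ratio.

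The soluble synthase SSI (LOC_Os06g06560), which lengthens short chains of amylopectin, had 1315 reads in A and 1540 in B for its 1 model in the table. That was 102 RPM (96.9 to 108) in A and 127 RPM (120 to 133) in B. B was the higher without overlap of the intervals. The log2 ratio was -0.31 (-0.42 to -0.20), with an adjusted p from edgeR of 5.04e-07 in the authors' deposited table. This was the same value, to 2 decimals, as the median of all loci in the table. When ratios were centred on the median of the table's models, SSI came to -0.0041 and AGPS2 to -0.21, while GBSSII reached 0.49 and AGPL1 1.45.

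**Figure D1:**
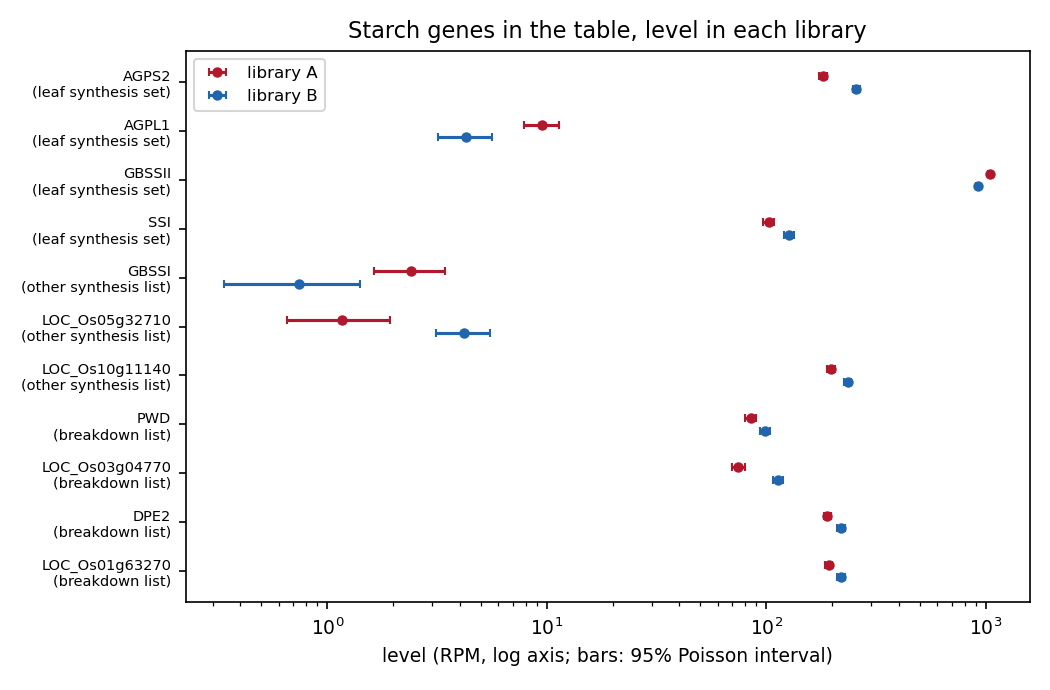
Level of each listed starch gene with a row, in RPM on a log axis, in library A (red) and library B (blue), 1 library each; bars are 95% Poisson intervals. AGPL1, GBSSII and GBSSI lie further right in A and the other 8 genes in B; levels of different genes are not on a common scale because reads were not divided by gene length.

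Genes can also be set against each other within a library, which leaves out the scaling of the libraries, and 7 such pairs were computed. The reads of AGPS2 were 19.0 times those of AGPL1 in A and 60.2 times in B. AGPS2 relative to AGPL1 was thus 3.16 times as high in B (2.26 to 4.48). Other subunit genes had no row, so this is not the ratio of all small to all large subunit transcripts. GBSSII relative to SSI was 1.41 times as high in A (1.30 to 1.52). AGPS2 relative to GBSSII was 1.62 times as high in B (1.52 to 1.72). AGPS2 and SSI, the members on the B side, were closest, with AGPS2 relative to SSI 1.15 times as high in B (1.05 to 1.26). The members on the A side were further apart, with AGPL1 relative to GBSSII 1.96 times as high in A (1.40 to 2.76). AGPL1 relative to SSI was 2.75 times as high in A (1.95 to 3.91). Pairs with members on opposite sides had to differ, since each member was listed for its own difference, and their values are a description.

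**Figure D2:**
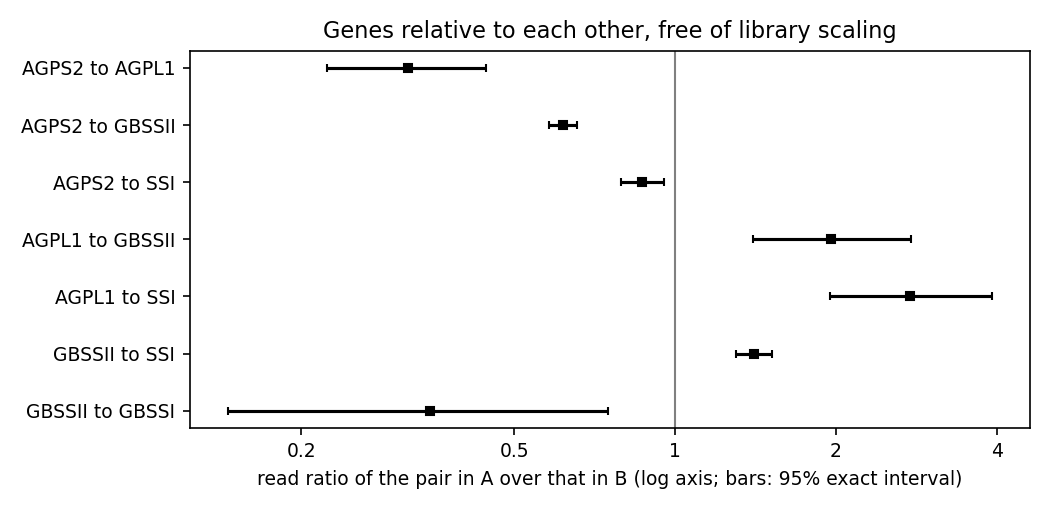
Read ratio of each pair of genes in library A divided by the same ratio in library B, on a log axis; squares are the values and bars 95% exact conditional intervals. Values left of 1 mean that the first gene is relatively higher in B, as for AGPS2 to AGPL1, and values right of 1 that it is relatively higher in A, as for GBSSII to SSI.

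Of 15 other genes listed for starch synthesis, 3 had rows, 2 with the higher level in B and 1 in A. GBSSI, the Waxy gene and the storage-tissue counterpart of GBSSII (LOC_Os06g04200), had 31 reads in A and 9 in B. Its level was 2.41 RPM (1.64 to 3.43) in A and 0.741 RPM (0.339 to 1.41) in B. A was the higher on few reads. The log2 ratio was 1.70 (0.60 to 2.96), with an adjusted p from edgeR of 0.0151 in the authors' deposited table, and its 4 models were identical. With 1 RPM added to both levels the ratio was 0.97. Both granule-bound synthase genes were thus higher in A, with GBSSII relative to GBSSI 2.87 times as high in B (1.33 to 6.86). The genes are related in sequence, and how reads matching both were assigned is not stated by any source used.

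The other 2 listed synthesis loci had no name in the reference table, like some genes named here from field knowledge, and are given by locus. LOC_Os05g32710 had 15 reads in A against 51 in B, which gave a log2 ratio of -1.85 (-2.78 to -0.99). LOC_Os10g11140 had 2530 and 2853 reads, a ratio of -0.25 (-0.33 to -0.18) that turned to 0.050 when centred. The 12 genes without a row were AGPL2, AGPL4, SSIIa, SSIIb, SSIIc, SSIIIa, SSIVa, SSIVb, BEIIb, ISA1, ISA3 and PUL. No branching enzyme of either list thus has a value.

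Of 11 genes listed for starch breakdown, 4 had rows. With the authors' scaling library B had the higher level for each of these 4, and after centring for 1 of 4. The whole table leaned to B as well, with 58.6% of loci higher there under the authors' scaling. Centring by its nature splits the models of the table evenly, with 2902 higher in each library. PWD (LOC_Os12g20150), for the kinase that phosphorylates glucans already phosphorylated by another dikinase, had 1088 reads in A and 1199 in B. Its levels of 84.7 RPM and 98.7 RPM gave a log2 ratio of -0.22 (-0.34 to -0.10). DPE2 (LOC_Os07g46790), for a cytosolic glucanotransferase that uses maltose exported from chloroplasts, had 2439 and 2656 reads and a ratio of -0.20 (-0.28 to -0.12). LOC_Os03g04770, with 959 and 1369 reads, had the largest of these ratios at -0.59 (-0.71 to -0.47) and stayed negative when centred, at -0.29. LOC_Os01g63270 stood at -0.19 (-0.27 to -0.11). The ratios of the breakdown genes spanned -0.59 to -0.19, and those of the 4 leaf synthesis members -0.51 to 1.15. GWD1, SEX4, DPE1, MEX1 and 3 further loci of that list had no row.

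**Figure D3:**
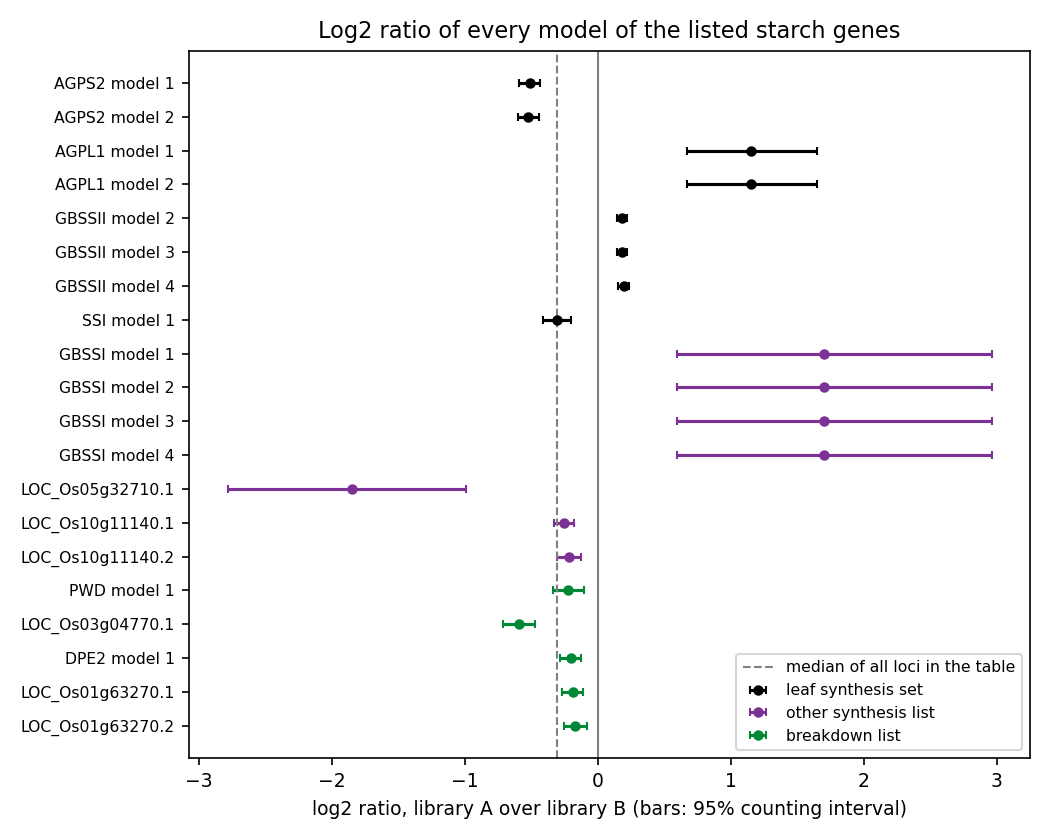
Log2 ratio of library A over library B for every model in the table of the leaf synthesis set (black), the other synthesis list (purple) and the breakdown list (green), with 95% counting intervals; the solid line marks 0 and the dashed line the median of all loci, -0.31. Models of 1 gene lie close together, AGPL1 and GBSSI have wide intervals to the right, and SSI lies on the dashed line.

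How far a ratio stood out depended on the read number. Of 112 other loci within 20% of the total reads of AGPS2, 93 had a smaller absolute log2 ratio, and their median was 0.27 against 0.51 for AGPS2. Of 176 such loci for SSI, 89 had a smaller one, so SSI lay near the middle. Among 229 loci of like depth to AGPL1, 171 had a smaller absolute ratio, and the lowest listed was 0.60. For GBSSII 4 of 25 loci were smaller. These loci are those that passed the authors' threshold, so the ranks hold within the table alone. No other locus had a pair of read numbers within 1% of that of any of the 4 members in both libraries.

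**Figure D4:**
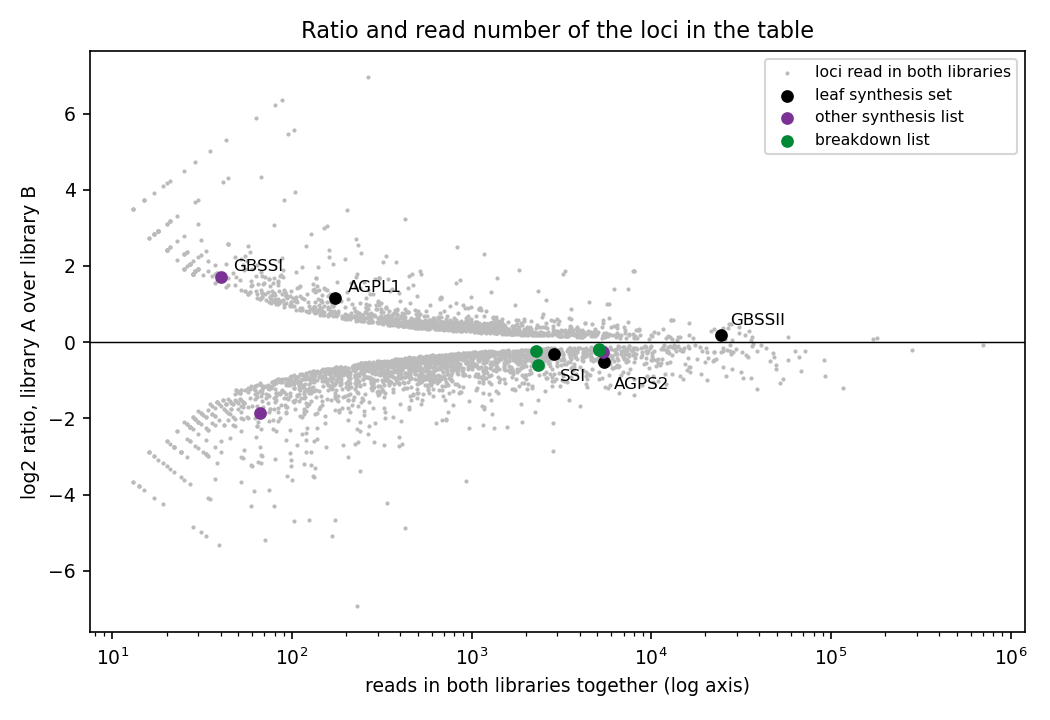
Log2 ratio of library A over library B against the reads of both libraries together (log axis) for the 3846 loci of the table read in both (grey), with the listed starch genes in colour. The empty band around 0, which narrows to the right, is where loci missed the authors' threshold; GBSSII lies in its narrow part and AGPL1 and GBSSI where it is wide.

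The surroundings of the members on their chromosomes were not alike. Around GBSSII on chromosome 7, 14 of the 16 loci of the table within 1000 locus numbers were higher in library A, as GBSSII was, and the number was 14 after centring too. Their log2 ratios, where both libraries had reads, ran from -0.97 to 2.67. In 3 of the 16 library B had 0 reads, among them LOC_Os07g22910, a close neighbour of GBSSII with 283 reads in A. Of all 3946 loci in the table, 3846 had reads in both libraries. Locus numbers give order and not distance in bases.

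Around SSI on chromosome 6, 8 of 9 loci were higher in library B, the direction of SSI, again 8 after centring, with ratios from -2.67 to 0.37. LOC_Os06g06250 had 58 reads in A and 349 in B there. Around AGPL1 on chromosome 5 both directions occurred, with 8 loci higher in A and 12 in B, which became 11 and 9 when centred. AGPS2 on chromosome 8 had 3 loci of the table nearby, 2 higher in A and 1 in B, and the nearest, LOC_Os08g25720, had 109 and 161 reads. GBSSII and SSI thus shared the direction of most listed neighbours. AGPL1 and AGPS2 did not under the authors' scaling, but AGPS2 had 3 such neighbours, too few to read a pattern from. Of all 3946 loci, 58.6% were higher in B and 41.4% in A under that scaling. The split around AGPL1 was close to these shares. The lean around SSI had the direction of all loci, and that around GBSSII the opposite one. Centred ratios split the models of the table evenly, with 2902 higher in each library, so the whole table then has no lean. After centring, SSI itself stood at -0.0041, so it had hardly any direction to share. Unequal alignment of the lines' reads to the reference was not tested, and neither were differences of chromosome segments between the lines.

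**Figure D5:**
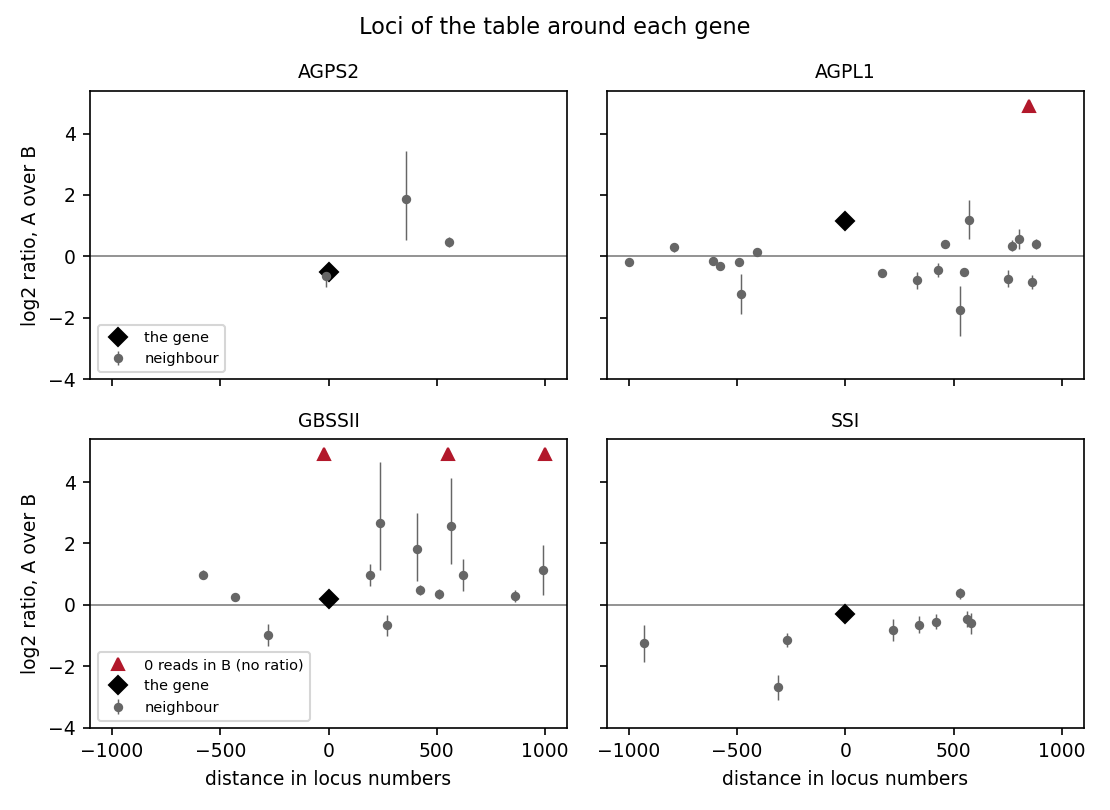
Log2 ratio of library A over library B, with 95% counting intervals, for the loci of the table within 1000 locus numbers of AGPS2, AGPL1, GBSSII and SSI, against their distance in locus numbers; diamonds are the genes themselves and triangles at the top loci with 0 reads in B, which have no ratio. Most points lie above 0 around GBSSII and below 0 around SSI, and on both sides around AGPL1.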

How the data were processed

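Poly-A RNA was primed with poly-T, made into inserts of about 500 bp and sequenced single-end over 100 bp by Illumina, per the labels' protocols. Bowtie 0.12.7 and edgeR appear in the submitters' processing notes. No source used here gives the build, annotation release, use of strand or treatment of multiply matching reads.

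Per the file headers, the authors deposited, for each model, a mean log2 share of reads, a log2 fold change, and a p-value before and after adjustment. The largest adjusted p was 0.0499. Shares solved from the log2 columns were whole multiples of 1 step per library for 100% of values, within 1e-06 of a read, and gave the reads and library sizes, a step tested on simulated data. The number of models tested came from the relation of p to adjusted p. The model with most reads stands for a locus. No count model was fitted to the recovered reads, since each line has 1 library and only models past the authors' threshold are listed. Python 3.11.15, numpy 2.4.6, pandas 2.3.3 and scipy 1.17.1 were used.

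Members and gene lists were chosen with earlier results of these data known. Named genes are the 10 members and all list genes. In RefSeq's genes of assembly ASM3414082v1, 15 of 39 names lay on the same chromosome, at most 3.76% of its length from the place their locus number gives; of the members these were AGPS2, SSI and BEI, and the other 7 member names rest on the member list alone, and unmatched names of list genes on field knowledge. That check cannot tell neighbouring genes apart. Alternatives were other scalings, pseudocounts, model choice and filters.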

Additional observations from a re-analysis of the deposited data

How the results depend on the processing

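Centring on the table's median shifts every log2 ratio by 0.30 towards A, and the table's own totals shift it by 0.20. The median of the 4 members, -0.06, turned to 0.24 and 0.14, while their split of 2 and 2 stayed. In that order, AGPS2 (-0.51) became -0.21 and -0.31, GBSSII (0.18) became 0.49 and 0.38, and SSI (-0.31) became -0.0041 and -0.11. When centred, PWD turned to 0.084, DPE2 to 0.10, LOC_Os10g11140 to 0.050 and LOC_Os01g63270 to 0.12, the last also with own totals, at 0.012. The other synthesis genes went from 2 higher in B and 1 in A to 1 and 2 when centred. The breakdown genes went from 4 and 0 to 1 and 3 when centred, and own totals gave 1 higher in A. With differences of 1 log2 or more only, 0 members in B and 1 in A were left, as fewer qualify, and 879 of 3463 models in B and 482 of 2341 in A. At or above the median level 1 member was left in A. A pseudocount of 1 RPM moved GBSSI from 1.70 to 0.97, LOC_Os05g32710 from -1.85 to -1.26 and AGPL1 from 1.15 to 0.99. These, the values with 0.1 RPM and those of the model with fewest reads lay within each gene's counting interval, which is wide for these 3. No paired analysis was possible because each line has 1 library. Depth limits GBSSI, LOC_Os05g32710 and AGPL1 most.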
